A study of Mus musculus with 70 samples.

Results

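Tregs from the colonic lamina propria that carried ST2 at the surface were compared with CD44hi Tregs from the same tissue that did not. ST2 is the receptor for the alarmin IL-33 and is the product of Il1rl1. The libraries were chosen by their labels alone, as colon ST2+ CD44hi or colon ST2- CD44hi Tregs with more than 1000000 counts. This left 8 of the 67 libraries kept in the series, 3 of ST2+ and 5 of ST2- Tregs, and 2 of the 5 colon ST2+ libraries fell below the limit. All groups came from the same 5 male Foxp3YFP-cre mice, aged 16.6 to 18.6 weeks, in which YFP and Cre are made from the Foxp3 locus. Each colon sample held 220 cells sorted with gates that included live, CD45.2+, CD8-, CD11b-, CD4+, YFP+ and CD44hi, and then as ST2+ or ST2-. Numbers 1 to 5 name the mice, so that ST2+ Tregs are represented by mice 1, 3 and 4 and ST2- Tregs by all 5. The series also holds both populations from blood, spleen, lungs, visceral adipose tissue (VAT) and skin of these mice, used here where colon was set against other tissues.

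Tregs are CD4+ T cells that restrain immune responses and depend on the transcription factor Foxp3. Tregs in tissues are known to take on specialised types. GATA3 and Helios mark Tregs that respond to IL-33, which epithelial and stromal cells release on injury, and that produce the tissue repair factor amphiregulin. The comparison asked which transcripts besides that of ST2 differed between the populations in this tissue.

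The 8 libraries held 1407509 to 2338195 counts, with 13960 to 19119 genes detected and 0.406% to 0.660% of counts from mitochondrial genes. Levels are given as CPM, counts per 1000000 of the library total scaled with TMM factors. The T cell identity of the sort was visible in each library. Cd3e, a chain of the T cell receptor complex, was at 328 to 440 CPM in ST2+ and 420 to 512 CPM in ST2- libraries. Foxp3 was at 160, 171 and 158 CPM in the ST2+ libraries of mice 1, 3 and 4 and at 192 to 223 CPM (median 204) in the ST2- libraries, so that each ST2+ library lay below each ST2- library without passing the test (log2 fold change -0.33 ± 0.15 SE, adjusted p 0.935). Cd4 was at 305 to 399 CPM against 367 to 648 CPM, Cd44 at 623 to 722 CPM against 461 to 695 CPM and Ptprc, which encodes CD45, at 1881 to 2137 CPM against 1872 to 2378 CPM, all with overlap. Cd8a, which marks CD8 T cells, had no counts in any of the 8 libraries. Rank correlations between libraries of different populations (Spearman's rho 0.835 to 0.931 over 15 pairs) covered much of the range within ST2- Tregs (0.869 to 0.943 over 10 pairs) and ST2+ Tregs (0.897 to 0.920 over 3 pairs).

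The ST2+ libraries differed from the ST2- libraries in their content of macrophage transcripts, and this is given first because it moves with every comparison below. The 20 genes of a macrophage list summed to 2760, 2475 and 2582 CPM in the ST2+ libraries of mice 1, 3 and 4. In the ST2- libraries they summed to 103, 459, 211, 85.9 and 108 CPM in mice 1 to 5. The 3 ST2+ libraries were close to each other and the lowest of them was above every ST2- library, with a ratio of mean sums of 13.5. The complement gene C1qb was at 287, 238.9 and 264 CPM in ST2+ libraries and at 3.98, 13.4, 13.6, 0 and 7.25 CPM in ST2- libraries of mice 1 to 5. Csf1r, the receptor for the macrophage growth factor CSF1, was at 201, 73.7 and 118 CPM in ST2+ libraries and did not exceed 1.28 CPM in ST2- libraries. Apoe, a lipid carrier abundant in tissue macrophages, was at 608, 739 and 666 CPM in ST2+ libraries against 64.2, 137, 84.3, 7.20 and 16.9 CPM in ST2- libraries. Each of the 3 genes was separated between the populations, with no ST2- library near the ST2+ values. Adgre1, which encodes F4/80, was at 28.7 to 57.0 CPM in ST2+ libraries and at 0 in 4 of the 5 ST2- libraries.

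Of the 19 macrophage genes tested, 18 had every ST2+ library above every ST2- library, where 3.67% of all 13173 tested genes did. At an unadjusted p below 0.05, 14 of the 19 were higher in ST2+ Tregs, against 2.83% of tested genes. None of them was called by edgeR's quasi-likelihood test fitted to all tissues, in which a gene needed a fold change of 1.5 and a Benjamini-Hochberg adjusted p of 0.05 over all tested genes. The smallest adjusted p values were 0.0794 for C1qb (log2 fold change 5.11 ± 1.14 SE) and 0.0794 for Apoe (3.44 ± 0.80 SE). The median log2 fold change of the list was 4.44 (4.39 with genes at 0 in ST2- libraries set to their bound), and that of all tested genes was 0.03. With limma's voom and quality weights, the method of the study, 15 of the 19 were called higher, where 1.99% of tested genes were called higher. DESeq2 called 0 of the 19, and edgeR fitted to the colon libraries alone called C1qa, C1qb, C1qc and Csf1r higher. Itgam encodes CD11b, which the sort gated out, and it had no counts in ST2- libraries and 5.75, 5.90 and 0.573 CPM in ST2+ libraries. In these bulk libraries, more cells of a type and more RNA of that type per cell cannot be told apart.

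**Figure D1:**
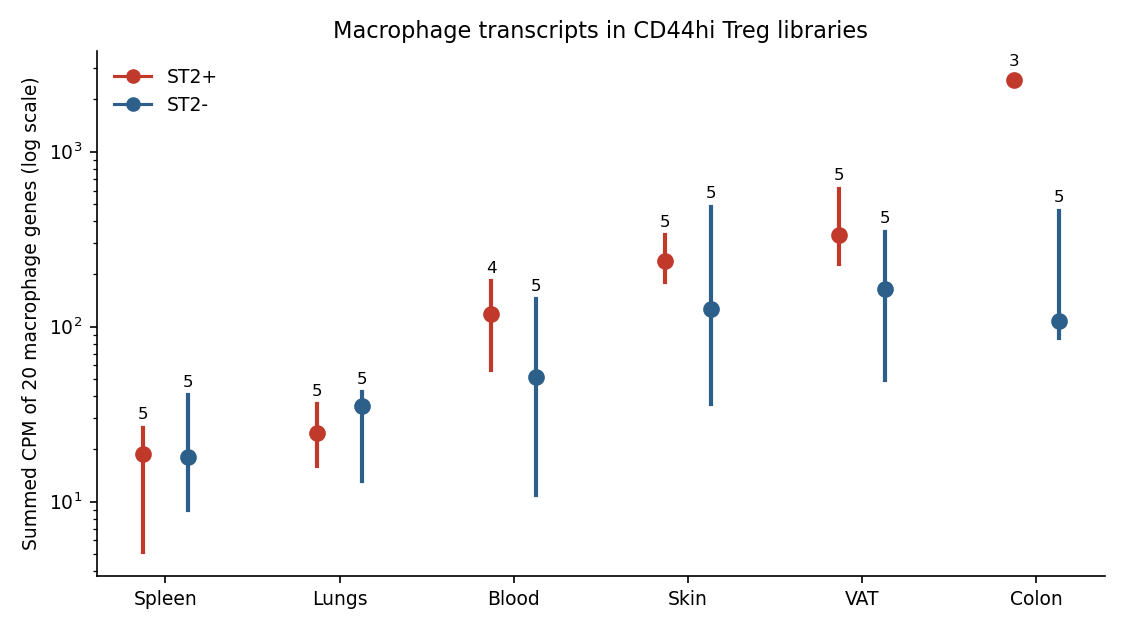
Summed CPM of the 20 macrophage genes (log scale) in ST2+ (red) and ST2- (blue) CD44hi Treg libraries of each tissue, with the median as a point, the lowest to highest library as a line and the number of libraries above it. Colon ST2+ libraries lie between 2475 and 2760 CPM, and no other group has a library above 614 CPM.

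The same sum was far lower in the other tissues. It ran from 229 to 614 CPM in VAT ST2+ libraries, from 179 to 332 CPM in skin ST2+ libraries and from 56.4 to 181 CPM in blood ST2+ libraries. In lungs and spleen no CD44hi library exceeded 42.1 CPM. The colon ST2+ libraries therefore held more of these transcripts than any other group of the series. Lists of other cell types varied too. The 18 genes of a colon epithelium list summed to 5004 CPM in the ST2+ library of mouse 3 and 5396 CPM in the ST2- library of mouse 2, and to 97.1 to 1693 CPM in the other 6. Of its 14 tested genes, 13 had fold changes above 1 (52.9% of all tested genes did), and 2 were higher at an unadjusted p below 0.05 (2.83%). Voom with quality weights called 7 higher (1.99%), edgeR and DESeq2 called 0, and every gene overlapped between the populations. A fibroblast list of 12 genes summed to 1706, 1856 and 516 CPM in ST2+ libraries and to 7.38 to 1013 CPM in ST2- libraries, with overlap. All 12 fibroblast genes had fold changes above 1 (52.9% of all tested genes did) and none was called by edgeR or DESeq2. At an unadjusted p below 0.05, 2 were higher (2.83% of all tested genes). Voom with quality weights called 10 of the 12 higher, where 1.99% of tested genes were called higher. The 9 genes of a mast cell list summed to 69.9 to 98.8 CPM in ST2+ libraries and to 18.2 to 52.5 CPM in ST2- libraries, without overlap. Of these genes, 7 were at 0 in every ST2+ library, among them Cpa3 and Fcer1a, and 5 were at 0 in every ST2- library. Of the defining genes Cpa3 and Kit, Kit was not among those at 0 in every ST2+ library. An ILC2 list of 8 genes summed to 1772 to 2044 CPM in ST2+ and 756 to 1305 CPM in ST2- libraries, also without overlap. Most of that sum in ST2+ libraries came from Klrg1 and Rora, which are on the GATA3-type list below as well, where their values are given. The part of these cell types in the results was not tested.

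**Figure D2:**
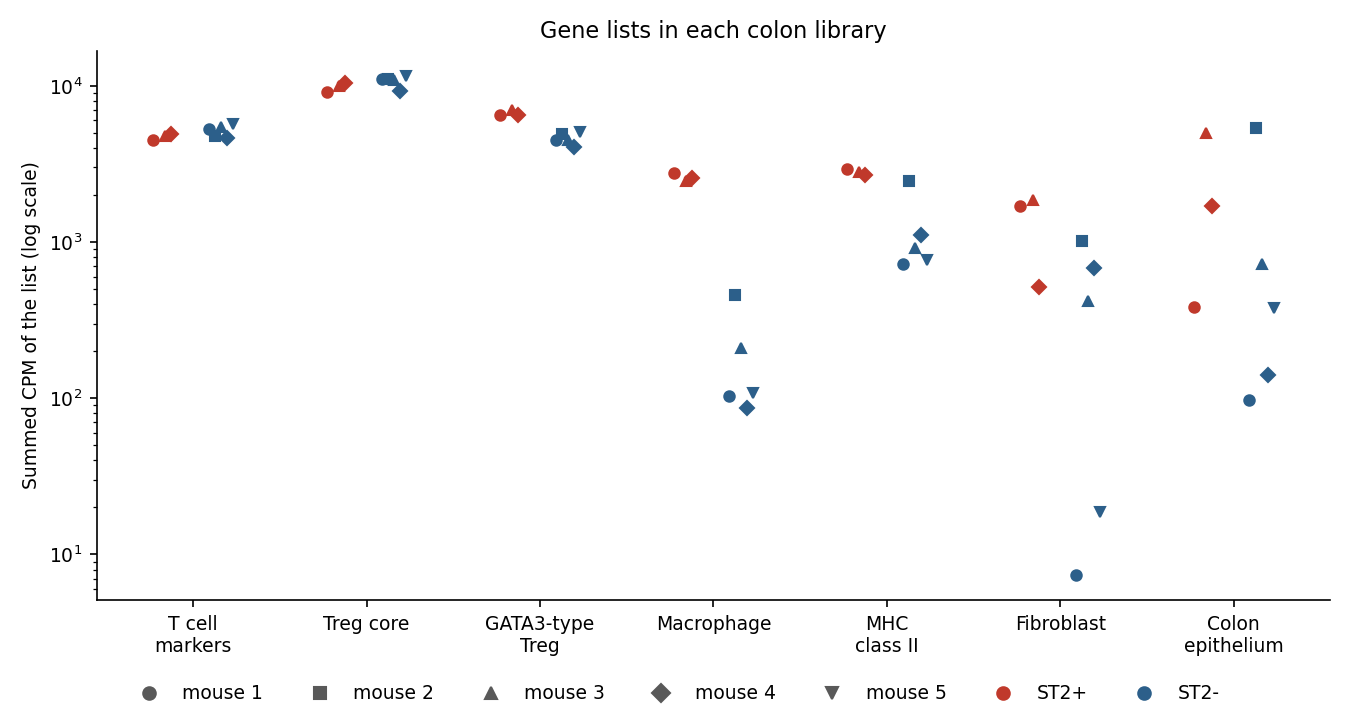
Summed CPM (log scale) of 7 gene lists in each colon library, with ST2+ libraries in red, ST2- libraries in blue and a symbol for each mouse. The macrophage sums of the ST2+ libraries stand above all ST2- libraries, and the epithelial sums are high in 1 library of each population.

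Between colon ST2+ and ST2- CD44hi Tregs, 9 of the 13173 tested genes were called (0.0683%), 4 higher in ST2+ Tregs (0.0304%) and 5 lower (0.038%). For each of the 9, all 3 ST2+ libraries lay on one side of all 5 ST2- libraries, and the difference had the same direction in all 3 mice that gave both libraries. Before adjustment, 373 genes were higher and 291 lower with p below 0.05, or 664 in all. The number called was sensitive to the test and to single libraries. Voom with quality weights called 295 genes (262 higher and 33 lower), and these held all 9. DESeq2 called 30 (13 higher and 17 lower), and these also held all 9. Leaving out the ST2+ library of mouse 3 left 5 genes (3 higher and 2 lower), and leaving out the ST2- library of mouse 2 gave 14 (8 higher and 6 lower).

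Il1rl1 (ENSMUSG00000026069, GRCm38 chromosome 1:40429570-40465415) encodes the protein used for the sort, so that its transcript checks the labels and is not a finding. It was at 685, 587 and 528 CPM in ST2+ libraries and at 0, 60.6, 26.6, 18.2 and 18.7 CPM in ST2- libraries of mice 1 to 5. All 3 ST2+ libraries therefore went with their label (log2 fold change 4.62 ± 0.47 SE, adjusted p 8.19e-10). Of its coreceptor and adaptor, Il1rap was at 14.9 to 31.7 CPM in ST2+ and 25.5 to 58.6 CPM in ST2- libraries, with overlap, and Myd88 was at 56.8 to 80.2 against 99.4 to 136 CPM, with each ST2+ library lower (log2 fold change -0.69 ± 0.30 SE, adjusted p 0.856). Il18r1, which binds IL-18 and belongs to the same receptor family, was at 75.7, 117 and 190 CPM in ST2+ libraries and at 148 to 336 CPM in ST2- libraries (log2 fold change -1.13 ± 0.40 SE, adjusted p 0.594). Of the 13 genes of the IL-1 receptor family and its signalling that were tested, Il1rl1 alone was called by edgeR, DESeq2 and voom with quality weights. At an unadjusted p below 0.05, 2 were lower, Il18r1 and Myd88 (2.21% of all tested genes were lower).

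Gata3 (ENSMUSG00000015619, chromosome 2:9857078-9890034) encodes the transcription factor of the IL-33-responsive Treg type. It was at 451, 439 and 343 CPM in ST2+ libraries and at 278, 193, 175, 202 and 255 CPM in ST2- libraries of mice 1 to 5. The lowest ST2+ library was above the highest ST2- library, and the means of 411 ± 59.0 CPM (SD, n = 3) and 221 ± 43.7 CPM (SD, n = 5) differed 1.86-fold (log2 0.90 ± 0.15 SE, adjusted p 0.000378). The call was lost when edgeR was fitted to colon libraries alone (adjusted p 0.134) and with mouse as a block in that fit (0.0985). It was also lost when the fold threshold itself was tested (glmTreat). Gata3 was also called higher in ST2+ Tregs of all 5 other tissues, by 0.70 in skin to 1.40 in VAT on the log2 scale. The difference in colon did not pass the test against the mean of the other tissues (log2 -0.23 ± 0.16 SE, adjusted p 1.0).

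The promoters of Il1rl1, Gata3 and Trib2 are shown because Il1rl1 and Gata3 were the 2 genes of this comparison called in the same direction in every tissue, and Trib2 had the smallest p among genes lower in ST2+ Tregs. Each window runs from 250 bases before to 50 bases after a RefSeq start site (GRCm38.p6), is written 5′ to 3′ on the strand of the gene, and was found for 8 of the 9 called genes. The capitals mark the letters AGATAA or TGATAA, to which GATA factors are known to bind, and GTAAACA, to which FOXO factors are known to bind, on either strand. Il1rl1 has a distal and a proximal start site.
Il1rl1 distal, chr1:40429320-40429619, + strand: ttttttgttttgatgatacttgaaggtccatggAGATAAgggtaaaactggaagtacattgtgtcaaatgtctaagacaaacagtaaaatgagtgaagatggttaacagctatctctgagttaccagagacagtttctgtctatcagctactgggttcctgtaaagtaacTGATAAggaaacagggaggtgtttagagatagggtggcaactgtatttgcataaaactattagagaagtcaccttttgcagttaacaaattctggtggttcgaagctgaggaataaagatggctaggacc
Il1rl1 proximal, chr1:40439379-40439678, + strand: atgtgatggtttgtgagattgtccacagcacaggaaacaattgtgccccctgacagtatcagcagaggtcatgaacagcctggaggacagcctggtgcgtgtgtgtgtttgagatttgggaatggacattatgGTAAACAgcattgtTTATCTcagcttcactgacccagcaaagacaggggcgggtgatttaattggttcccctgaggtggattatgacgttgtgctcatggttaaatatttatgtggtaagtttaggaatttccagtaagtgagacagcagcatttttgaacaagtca
Gata3, chr2:9878551-9878850, - strand: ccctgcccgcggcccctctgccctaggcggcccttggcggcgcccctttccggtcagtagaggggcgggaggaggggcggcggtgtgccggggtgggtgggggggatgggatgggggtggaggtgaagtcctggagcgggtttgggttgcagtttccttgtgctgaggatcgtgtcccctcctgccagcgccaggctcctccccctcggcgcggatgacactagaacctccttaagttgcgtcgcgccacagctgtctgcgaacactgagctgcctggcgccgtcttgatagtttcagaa
Trib2, chr12:15816736-15817035, - strand: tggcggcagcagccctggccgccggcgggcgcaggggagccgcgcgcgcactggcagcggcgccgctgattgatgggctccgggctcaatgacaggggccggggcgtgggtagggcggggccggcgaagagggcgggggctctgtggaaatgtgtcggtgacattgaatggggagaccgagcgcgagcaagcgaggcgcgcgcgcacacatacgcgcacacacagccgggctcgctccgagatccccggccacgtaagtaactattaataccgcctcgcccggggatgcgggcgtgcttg

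The GATA letters begin 217 and 80 bases before the distal start of Il1rl1, both on the strand of the gene, and 103 bases before its proximal start on the opposite strand. The FOXO letters begin 117 bases before the proximal start. Among the 9 windows of called genes, 2 held the GATA letters and 1 the FOXO letters, all of them Il1rl1 windows. Of all 32851 promoter windows of the same length, 18.6% held the GATA letters and 3.65% the FOXO letters. These are matches of letters only, and windows that lack them may be bound elsewhere.

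The other genes called higher were enzymes. Ctsc (ENSMUSG00000030560, chromosome 7:88278085-88310888) encodes cathepsin C, a lysosomal peptidase of cytotoxic and myeloid cells that activates granzymes. It was at 442, 451 and 390 CPM in ST2+ libraries and at 113, 251, 218, 246 and 240 CPM in ST2- libraries, so that the populations were apart and mouse 1 was the lowest of the ST2- libraries (log2 fold change 1.002 ± 0.18 SE, adjusted p 0.00180). Cpm (ENSMUSG00000020183, chromosome 10:117629500-117687352) encodes carboxypeptidase M, a peptidase of the cell surface. It was at 538, 492 and 495 CPM in ST2+ libraries and at 315, 358, 241, 259 and 296 CPM in ST2- libraries, again without overlap (log2 fold change 0.79 ± 0.16 SE, adjusted p 0.0124). The call of Cpm was lost without any one of the ST2+ libraries of mice 1, 3 and 4 (edgeR adjusted p 0.188, 0.0686 and 0.0606) and without the ST2- library of mouse 3 (0.103) or 4 (0.0554). Cpm was also called higher in ST2+ Tregs of blood, spleen, VAT and skin, whereas Ctsc was called in colon alone, with log2 fold changes between -0.16 and 0.31 elsewhere. The difference of Ctsc in colon from the mean of the other tissues was 0.90 ± 0.19 SE on the log2 scale and missed the threshold (adjusted p 0.0860). When the level of the macrophage list was added to the fit as a covariate, Ctsc (log2 0.86, adjusted p 0.307) and Cpm (0.54, adjusted p 0.768) were no longer called, whereas Il1rl1 (4.75, adjusted p 6.11e-06) and Gata3 (1.01, adjusted p 0.00705) were. That level did not overlap between the colon populations, so that within colon the covariate and the population cannot be told apart.

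**Figure D3:**
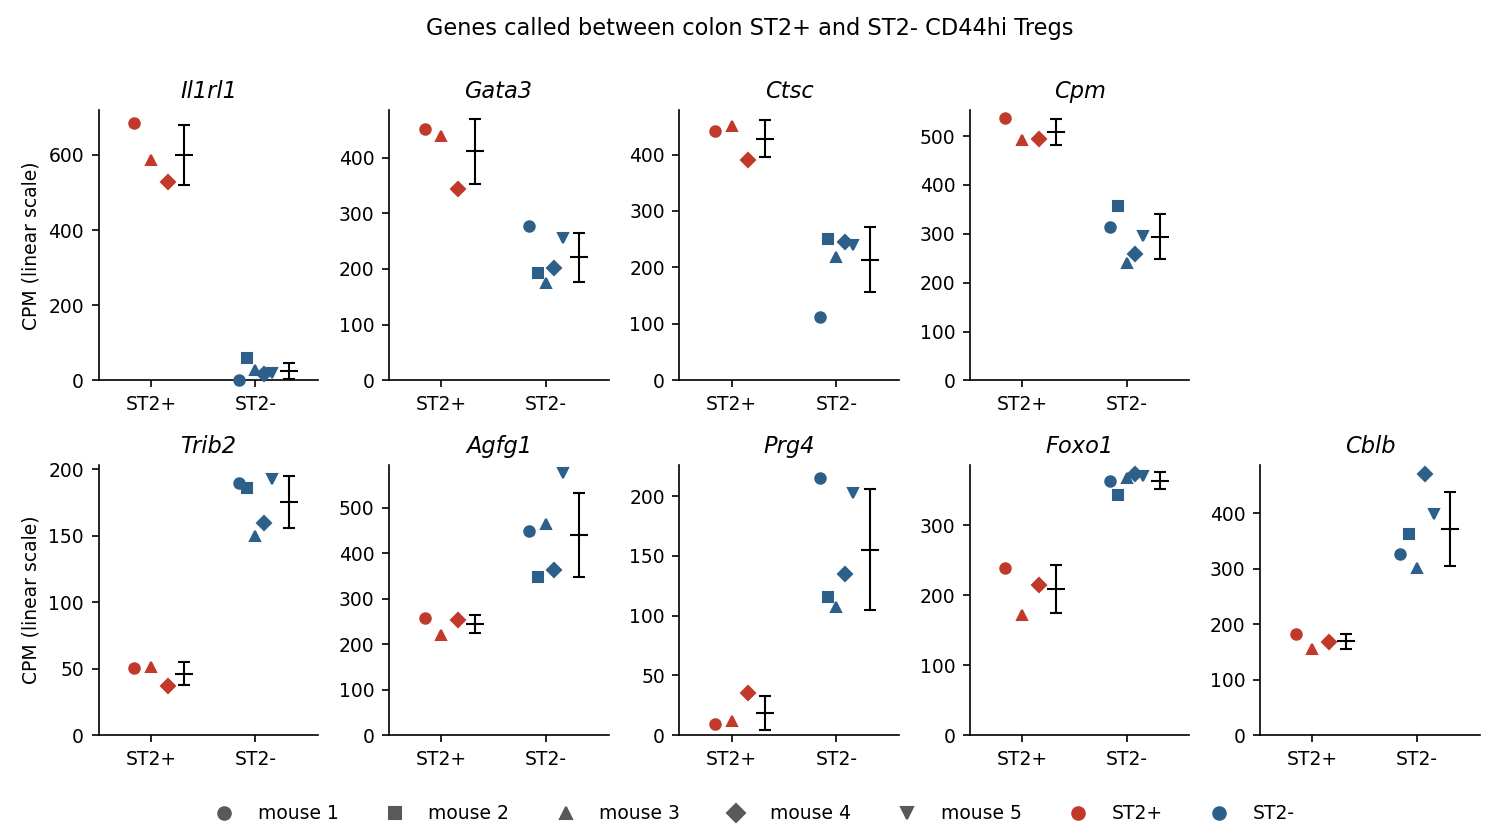
CPM (linear scale) of the 9 called genes in each colon library, with ST2+ in red, ST2- in blue, a symbol for each mouse, and the mean with SD beside each population. No gene has an ST2+ library within the range of its ST2- libraries, and Ctsc is at 113 CPM in the ST2- library of mouse 1.

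The genes called lower in ST2+ Tregs included signalling regulators. Trib2 (ENSMUSG00000020601, chromosome 12:15791727-15816922) encodes a pseudokinase that brings substrates to a ubiquitin ligase. It was at 50.8, 51.6 and 36.7 CPM in ST2+ libraries and at 190, 186, 150, 159 and 193 CPM in ST2- libraries. The means of 46.4 ± 8.40 CPM (SD, n = 3) and 175 ± 19.5 CPM (SD, n = 5) were 3.78-fold apart (log2 -1.92 ± 0.29 SE, adjusted p 6.52e-05). Trib2 was also called lower in blood (log2 -0.91) and VAT (log2 -1.16), and its difference in colon from the mean of the other tissues was -1.30 ± 0.30 SE (adjusted p 0.111).

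Foxo1 (ENSMUSG00000044167, chromosome 3:52268336-52353221) encodes a transcription factor that maintains quiescence and lymphoid homing and is switched off by AKT signalling. It was at 239.2, 172 and 215 CPM in ST2+ libraries and at 363, 343, 368, 373 and 371 CPM in ST2- libraries, which were tightly grouped (log2 fold change -0.80 ± 0.16 SE, adjusted p 0.0124). Cblb (ENSMUSG00000022637, chromosome 16:52031225-52208048) encodes a ubiquitin ligase that restrains signalling from the T cell receptor. It was at 183, 156 and 168 CPM against 327, 363, 301, 471 and 399 CPM, a 2.20-fold lower level in ST2+ Tregs (log2 -1.14 ± 0.24 SE, adjusted p 0.0240). The call of Cblb was lost without any one of the ST2+ libraries of mice 1, 3 and 4 (edgeR adjusted p 0.1596, 0.379 and 0.135) and without the ST2- library of mouse 4 (0.135) or 5 (0.0794), and that of Foxo1 without the ST2+ library of mouse 3 (0.427) or 4 (0.0955). Both were also called lower in ST2+ Tregs of blood, Foxo1 in lungs and Cblb in VAT.

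The remaining genes called lower encode a secreted and an intracellular protein. Prg4 (ENSMUSG00000006014, chromosome 1:150449412-150466165) encodes lubricin, a secreted proteoglycan of joint surfaces. It was at 9.11, 11.8 and 35.0 CPM in ST2+ libraries and at 215, 116, 107, 135 and 203 CPM in ST2- libraries, 8.30-fold apart (log2 -3.05 ± 0.58 SE, adjusted p 0.00423). Agfg1 (ENSMUSG00000026159, chromosome 1:82839483-82901182) encodes a protein with an ArfGAP domain. It was at 258, 221 and 254 CPM against 448, 347, 465, 364 and 576 CPM (log2 fold change -0.85 ± 0.13 SE, adjusted p 9.27e-05). The call of Prg4 was lost without the ST2+ library of mouse 1 (edgeR adjusted p 0.188) or 3 (0.184). Prg4 and Agfg1 were also called lower in VAT. With the macrophage covariate, Trib2 (log2 -1.84, adjusted p 0.00705), Foxo1 (-0.97, adjusted p 0.0266) and Agfg1 (-1.09, adjusted p 2.51e-05) were called, whereas Cblb (-0.94, adjusted p 0.536) and Prg4 (-2.82, adjusted p 0.143) were not. The same covariate in voom with quality weights left Prg4 (-2.99, adjusted p 0.0279) and Ctsc (0.86, adjusted p 0.0499) called, and Cblb (adjusted p 0.414) and Cpm (adjusted p 0.313) not called.

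**Figure D4:**
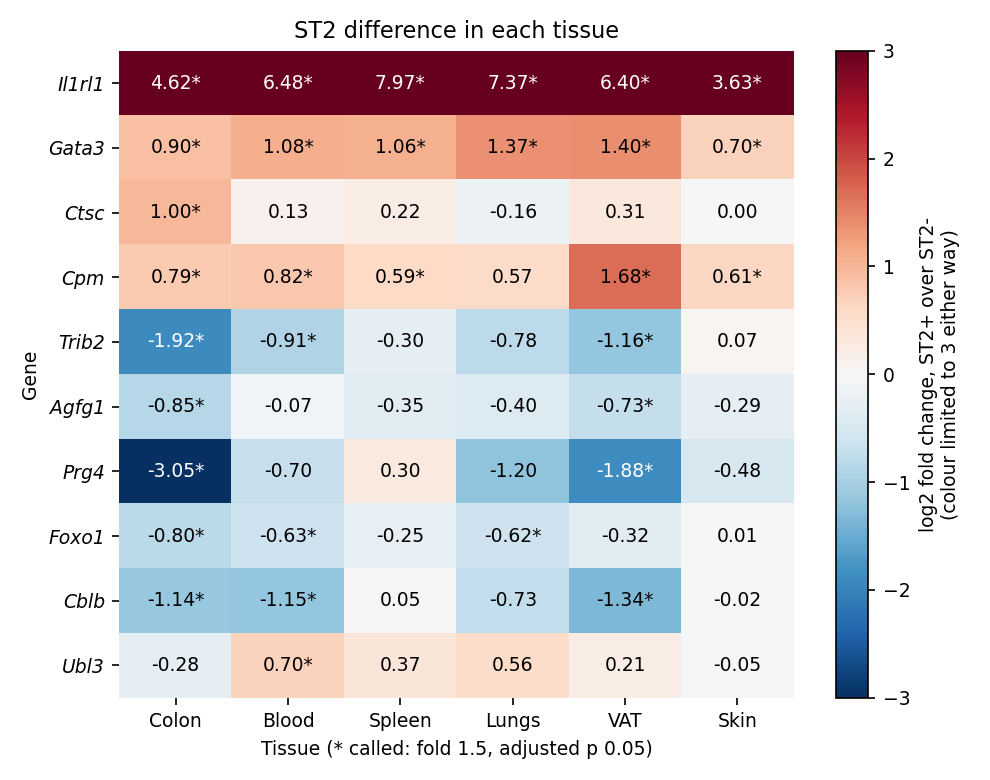
Log2 fold change of ST2+ over ST2- CD44hi Tregs in each tissue for the 9 genes called in colon and for Ubl3, with an asterisk where the gene was called in that tissue. Il1rl1 and Gata3 are called in all 6 tissues, Ctsc in colon alone, and Ubl3 is at -0.28 in colon and 0.70 in blood.

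Several genes lay outside the threshold, with adjusted p values of 0.0875 to 0.195. Cdc25b, a phosphatase that starts mitosis, was at 121, 97.3 and 111 CPM in ST2+ libraries and at 35.1 to 58.8 CPM in ST2- libraries (log2 fold change 1.24 ± 0.29 SE, adjusted p 0.0875). Tent5a, a poly(A) polymerase, was at 529, 578 and 456 CPM against 210 to 323 CPM (adjusted p 0.0976) and was called higher in spleen, lungs and VAT. On the lower side, Cd247, the zeta chain of the T cell receptor complex, was at 219, 212 and 283 CPM against 280 to 371 CPM, with overlap (log2 fold change -0.46 ± 0.11 SE, adjusted p 0.0875). Nfatc1, a calcium-dependent transcription factor downstream of that receptor, was at 339, 205 and 300 CPM against 341 to 715 CPM, with the populations apart by a narrow gap (adjusted p 0.170). Il2rb, the beta chain of the IL-2 receptor, was at 347, 216 and 436 CPM against 425 to 788 CPM (log2 fold change -0.70 ± 0.19 SE, adjusted p 0.195). None of the 5 was called by edgeR, and DESeq2 called Cdc25b, Tent5a, Nfatc1 and Il2rb. Voom with quality weights called Tent5a higher (adjusted p 2.69e-05).

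Genes of the GATA3-type tissue Treg went in both directions. Of 16 tested genes, 2 were called higher (Il1rl1, the gene of the sort, and Gata3), where 0.0304% of all tested genes were. A fold change above 1 was found for 12 (52.9% of all tested genes), and 7 had every ST2+ library above every ST2- library (3.67%), 1 of them Il1rl1, while 1 had every ST2+ library below (2%). The median log2 fold change was 0.51, and that of all tested genes was 0.03. Areg, which encodes amphiregulin, was at 441, 546 and 493 CPM in ST2+ libraries and at 235, 347, 234, 145 and 199 CPM in ST2- libraries (log2 1.09 ± 0.34 SE, adjusted p 0.401). Klrg1, a receptor of terminally differentiated effector cells, was at 713, 901 and 728 CPM against 337, 373, 332, 170 and 438 CPM (log2 1.24 ± 0.53 SE, adjusted p 0.862). Both were separated between the populations without passing the test. Pparg, the lipid-sensing transcription factor of VAT Tregs, was at 44.1, 45.7 and 39.0 CPM in ST2+ libraries and at 0 to 13.4 CPM in ST2- libraries (adjusted p 0.540). Ikzf2, which encodes Helios, was at 866, 1215 and 927 CPM against 509 to 878 CPM, with overlap by 1 ST2- library (adjusted p 0.748). Rora, a nuclear receptor of tissue lymphocytes, was at 827, 1004 and 916 CPM against 534 to 805 CPM (adjusted p 1.0). Voom with quality weights called 5 of the 16 higher and 1 lower, the lower gene being Maf, where 1.99% of all tested genes were called higher and 0.251% lower. Maf, a factor needed for IL-10 in T cells, was at 291, 293 and 276 CPM against 487, 394, 516, 339 and 593 CPM, with each ST2+ library below each ST2- library (log2 -0.70 ± 0.33 SE, adjusted p 0.965). The macrophage sum of 2475 to 2760 CPM in ST2+ libraries moved with this list. With that sum as a covariate, voom with quality weights called 3 of the 16 higher and 0 lower, where 49 of all 13173 tested genes were called higher. Beyond that covariate the part of the macrophage sum in the result was not tested.

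**Figure D5:**
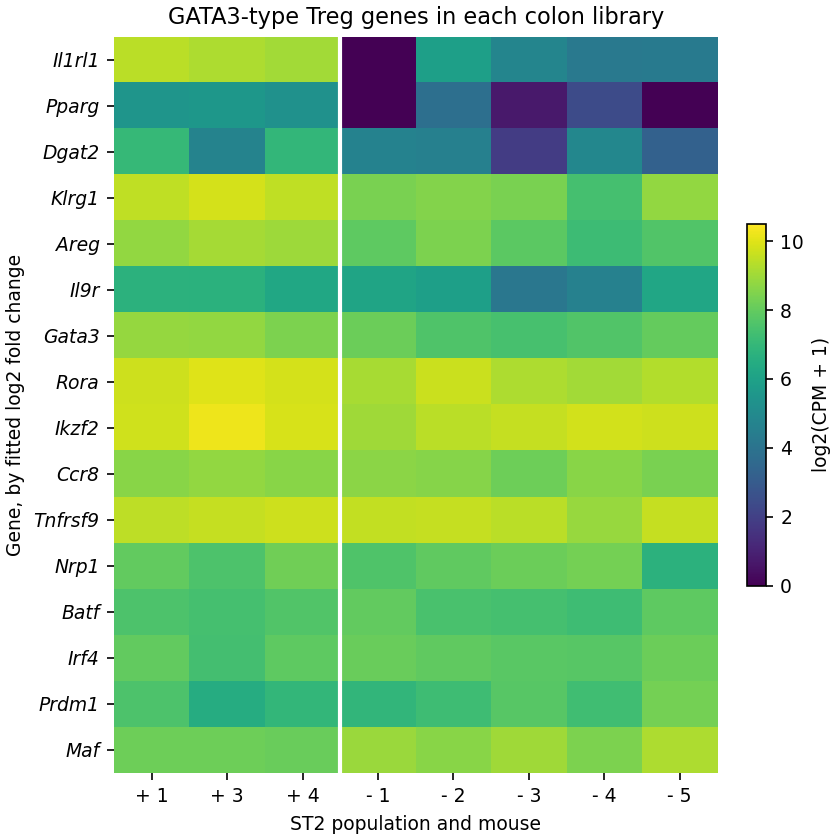
Log2(CPM + 1) of each gene of the GATA3-type list in the 3 ST2+ and 5 ST2- colon libraries, with genes ordered by fitted fold change and the mouse number under each column. The first rows are brighter in ST2+ libraries, and Maf is darker there.

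Genes that define Tregs as such gave no call. Of 24 genes of a Treg core and suppression list, none was called by edgeR, and the median log2 fold change was -0.20. At an unadjusted p below 0.05, 1 was higher (Ikzf2) and 4 were lower, where 2.83% and 2.21% of all tested genes were. Voom with quality weights called 0 and DESeq2 called 1 lower, Il2rb. Il10, the suppressive cytokine of colon Tregs, was at 332, 666 and 456 CPM in ST2+ libraries and at 384 to 811 CPM in ST2- libraries, with overlap (log2 -0.46 ± 0.40 SE, adjusted p 1.0). Il2ra, which encodes CD25, was at 387 to 428 CPM against 354 to 544 CPM, and Ctla4, an inhibitory receptor, was at 936 to 1247 CPM against 1000 to 1431 CPM. Gzmb, the cytotoxic protease granzyme B, was at 85.3, 250 and 382 CPM against 205 to 644 CPM (log2 -1.07 ± 0.64 SE, adjusted p 1.0). The ranges of these 4 genes overlapped between the populations.

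The 24 chemokine and homing receptors tested gave no call by edgeR or DESeq2, while 4 were higher (2.83% of all tested genes) and 3 were lower (2.21%) with an unadjusted p below 0.05. Voom with quality weights called Itgb1 and Cx3cr1 higher (1.99% of all tested genes) and Ccr6 lower (0.251%). For 5 of the 24, every ST2+ library was below every ST2- library, where 2% of all tested genes were. Ccr6, a chemokine receptor that follows Ccl20, was at 175, 130 and 134 CPM against 329, 352, 367, 271 and 446 CPM (log2 -1.27 ± 0.61 SE, adjusted p 0.965). Ccr3, an eotaxin receptor, was at 51.3, 87.0 and 53.3 CPM in ST2+ libraries and at 0 to 18.2 CPM in ST2- libraries (log2 2.85 ± 0.79 SE, adjusted p 0.215). Itgb1, an integrin chain that binds matrix, was at 440, 518 and 576 CPM against 153 to 406 CPM (log2 0.80 ± 0.23 SE, adjusted p 0.268). Ccr9, a receptor for homing to the small intestine, was at 53.7, 17.0 and 19.5 CPM against 103 to 266 CPM (log2 -2.40 ± 1.28 SE, adjusted p 1.0). Each of the 4 was separated between the populations. Ccr7, the receptor for lymphoid homing, was at 271, 14.7 and 328 CPM against 289 to 866 CPM and varied most in ST2+ libraries, with mouse 3 near 0. Gpr15, which guides Tregs to the colon, was at 256 to 323 CPM against 173 to 288 CPM, with overlap.

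Among 21 cytokine receptors tested, none was called by edgeR, while 2 were higher (2.83% of all tested genes) and 3 were lower (2.21%) with an unadjusted p below 0.05. DESeq2 called Il10ra higher and Il2rb lower. Voom with quality weights called Il10ra higher (1.99% of all tested genes) and Il23r lower (0.251%). Il10ra, the binding chain of the IL-10 receptor, was at 474, 478 and 417 CPM in ST2+ libraries and at 260, 200, 208, 113 and 233 CPM in ST2- libraries (log2 1.17 ± 0.31 SE, adjusted p 0.190). It was separated between the populations and was called higher in ST2+ Tregs of spleen, lungs and VAT. Il7r, the receptor for the survival cytokine IL-7, was at 758, 700 and 663 CPM against 374 to 553 CPM (adjusted p 0.557). Il23r, the receptor for IL-23, was at 0.479, 0 and 1.72 CPM in ST2+ libraries and at 30.1, 21.1, 27.2, 8.89 and 67.6 CPM in ST2- libraries, without overlap (adjusted p 0.805). Il27ra, the receptor for IL-27, was at 320, 208 and 337 CPM against 334 to 533 CPM, with overlap (log2 -0.59 ± 0.16 SE, adjusted p 0.190).

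The study chose 19 cytokine and chemokine genes and 8 core genes on these samples, so that their direction is not independent evidence. Of the 18 cytokine genes tested, edgeR called Il1rl1 alone (0.0304% of all tested genes were called higher). Voom with quality weights, the method of the study, called 14 higher (1.99%) and 4 lower (0.251%), and DESeq2 called 2 higher. For 8 of the 18, every ST2+ library was higher (3.67% of all tested genes), and for 4 every ST2+ library was lower (2%). Ccl20, the ligand of Ccr6, was at 23.5, 2.21 and 3.44 CPM in ST2+ libraries and at 294, 197, 82.4, 88.1 and 166 CPM in ST2- libraries, a 16.7-fold difference in the fit (log2 -4.07 ± 1.16 SE, adjusted p 0.278). Cxcl1, a chemokine for neutrophils, was at 150, 75.2 and 12.6 CPM in ST2+ libraries and at most 1.95 CPM in ST2- libraries. Il33 itself, also on the fibroblast list, had no counts in any ST2- library and was at 0, 73.0 and 4.58 CPM in ST2+ libraries, mostly in mouse 3, in which the epithelial and fibroblast sums were also highest among ST2+ libraries. Csf1r and Cx3cr1 of this list are also macrophage genes, and their values moved with the macrophage sum. Of the 8 core genes, edgeR called 2 higher (Il1rl1 and Gata3), where 0.0304% of all tested genes were. Voom with quality weights called 6 of the 8 higher (1.99%) and 1 lower (0.251%), and DESeq2 called 3 higher. All 8 were separated between the populations, 7 higher (3.67% of all tested genes) and 1 lower (2%). The lower gene, Tbc1d4, a regulator of glucose transporter traffic, was at 69.5, 2.95 and 58.5 CPM in ST2+ libraries and at 118 to 406 CPM in ST2- libraries (adjusted p 0.170).

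Genes of antigen presentation and of recent stimulation were next. Of 8 MHC class II genes tested, none was called by edgeR or DESeq2, 2 were higher at an unadjusted p below 0.05 (2.83% of all tested genes) and 3 had every ST2+ library above every ST2- library (3.67%), while voom with quality weights called 5 higher (1.99%). The sum of the list was 2690 to 2919 CPM in ST2+ libraries and 726, 2451, 913, 1101 and 770 CPM in ST2- libraries, where mouse 2 stood near the ST2+ values. Cd74, the invariant chain, was at 834, 804 and 817 CPM against 348 to 659 CPM (log2 0.85 ± 0.31 SE, adjusted p 0.651). Macrophages and epithelium also express these genes, and both sums are given above. Of 15 immediate early genes, which cells induce within minutes of stimulation or handling, 14 had fold changes above 1 (52.9% of all tested genes did). Their median log2 fold change was 0.25 and none was called by edgeR. Ier2 and Atf3 were higher at an unadjusted p below 0.05 (2.83% of all tested genes). For 3 of the 15, every ST2+ library was above every ST2- library (3.67%). DESeq2 called Ier2 and voom with quality weights called Atf3, where voom called 1.99% of tested genes higher. Atf3, a stress-induced factor, was at 645, 720 and 629 CPM against 147 to 499 CPM, without overlap (log2 1.05 ± 0.51 SE, adjusted p 0.971). Of 15 cell cycle genes, none was called by edgeR, DESeq2 or voom with quality weights and none passed an unadjusted p below 0.05, and Mki67, a marker of cycling cells, was at 33.9 to 110 CPM in ST2+ and 16.9 to 108 CPM in ST2- libraries.

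To ask which differences were larger or smaller in colon than elsewhere, the difference of ST2+ and ST2- Tregs in colon was tested against the mean difference of the other 5 tissues. One gene of 13173 (0.00759%) was called, Ubl3 (ENSMUSG00000001687, chromosome 5:148504635-148552789), which encodes a ubiquitin-like protein anchored to membranes. It was at 424, 399 and 454 CPM in ST2+ and 562, 576, 496, 419 and 537 CPM in ST2- colon libraries, with overlap. The log2 fold change was -0.28 in colon and 0.70, 0.37, 0.56, 0.21 and -0.05 in blood, spleen, lungs, VAT and skin, a difference of -0.64 ± 0.13 SE (adjusted p 0.0468). Before adjustment, 521 genes had p below 0.05. DESeq2 called 13 genes and voom with quality weights 223. The call of Ubl3 was lost in 14 of 22 other settings, among them RLE scaling (adjusted p 0.0679), no filter on low counts (0.0881) and all 70 libraries (0.493). It was also lost without any one of the ST2+ libraries of mice 1, 3 and 4 (edgeR adjusted p 0.332, 0.319 and 0.0738) and without the ST2- library of mouse 1, 2, 3 or 5 (0.0516 to 0.215).

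The next genes by p included receptors for leukocyte attractants. Ltb4r1, the receptor for leukotriene B4, was at 152, 173 and 80.8 CPM in ST2+ and 64.5 to 166 CPM in ST2- colon libraries (log2 0.18 ± 0.51 SE), whereas it was called higher in ST2+ Tregs of blood (5.51), spleen (3.73), lungs (2.91) and VAT (2.18). The difference was -2.76 ± 0.61 SE on the log2 scale and was not called (adjusted p 0.0970). Ccr1, a receptor for inflammatory chemokines, was at 130, 166 and 113 CPM against 58.8 to 336 CPM in colon, with a difference from the other tissues of -4.60 ± 1.02 SE (adjusted p 0.0970). Ccr2, which follows monocyte chemoattractants, was at 317, 543 and 492 CPM against 555 to 1053 CPM in colon and was called higher in ST2+ Tregs of blood and spleen (difference -2.15 ± 0.55 SE, adjusted p 0.337). In these 3 genes colon ST2- Tregs already held the transcript at levels in the range of, or above, colon ST2+ Tregs. Lair1, an inhibitory receptor for collagen on myeloid and lymphoid cells, was at 80.1, 44.2 and 16.0 CPM in ST2+ colon libraries and had no counts in 4 of 5 ST2- libraries and 0.847 CPM in that of mouse 4 (adjusted p of the difference 0.0860). Ecm1, a secreted matrix protein, was at 415, 246 and 165 CPM against 49.5 to 169 CPM, with a difference of 1.61 ± 0.37 SE (adjusted p 0.111).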

How the data were processed

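Tregs were sorted into lysis buffer, cDNA was made with SMART-Seq v4 and libraries with NexteraXT. The deposited values are raw counts per gene, which the authors made with STAR on GRCm38 and HTSeq 0.4.1. The counting mode and strand setting were not given in the sources used here, so that reads of overlapping and antisense genes cannot be told apart. The table held 53465 gene IDs, of which 21865 were protein-coding in GENCODE M21. All mapped value columns were used. Of 70 libraries, 67 exceeded 1000000 counts (1304560 to 2759926) and were kept.

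Genes at 1 CPM or more in at least 10% of kept libraries were tested (13173). Counts were fitted with edgeR 4.0.16 (TMM, quasi-likelihood, all 14 groups, R 4.3.3), which the comparison uses in place of the voom with quality weights of the study, and p values were Benjamini-Hochberg adjusted over all tested genes. A gene was called at a fold change of 1.5 or more and an adjusted p of 0.05 or less. Fold changes are the model's, means ± SD are over libraries, and replicates are separate mice. The comparison with other tissues was a contrast in the same fit. Alternatives used limma 3.58.1, DESeq2 1.42.0, RLE scaling, other filters and sets of libraries, a replicate block, a macrophage covariate, and each library left out. The fit was also run on counts simulated with the spread of each gene shared by all tissues. That run cannot speak for a spread that differs in colon, and its outcome is not reported here. Same-numbered libraries come from the same animal, and their deviations from the group means correlated at 0.0924, 0.180 and 0.111 for mice 1, 3 and 4, against a mean of -0.0317 between mice. Tables and plots were made with Python 3.11.15.

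The genes compared and the lists were chosen with earlier results of these data known. Named were all called genes, the transcripts of the sorted proteins, and 2 to 6 members of each list by p or level. Others came from the 15 smallest p values in each direction and the 10 smallest for the difference from other tissues. These ranks are not named in full. Adgre1, Itgam, Il1rap, Il10, Il2ra, Ctla4, Gzmb, Ccr2, Ccr9, Gpr15, Rora and Mki67 were named after their values were seen. Some results are not reported here.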

Additional observations from a re-analysis of the deposited data

Results flagged for a closer look

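Among the 5 colon ST2- libraries, single samples stood far from the rest in 6 of 38 values tested. Chance gives such a value in about 1 of 20 where values are normally distributed and independent. The values tested were untransformed CPM and sums of CPM from the same 5 libraries, so that this rate need not hold for them. Mouse 1 was low for Ctsc (113 CPM, others 218 to 251) and for the IL-1 receptor family list (871 CPM, others 1247 to 1325), and high for the cell cycle list (1376 CPM, others 446 to 651). Mouse 2 was high for the list of IL-33 and other IL-1 family ligands (263 CPM, others 14.2 to 64.0), for MHC class II (2451 CPM, others 726 to 1101) and for colon epithelium (5396 CPM, others 97.1 to 725). Ctsc is 1 of the 4 genes called higher in ST2+ Tregs, and without the ST2- library of mouse 1 the count of called genes was 9.

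The ST2 difference of Ubl3 in colon differed from the mean of the other tissues by -0.64 on the log2 scale.

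The colon ST2+ library of mouse 5 was below the count limit, with 62333 counts, and entered no comparison. Its macrophage list held 33 counts (529 CPM of the library total), against at most 459 CPM in an ST2- library and at least 2475 CPM in the kept ST2+ libraries, with 18 counts from Apoe and 0 from C1qb, which allows up to 48.1 CPM. Il1rl1 held 19 counts (305 CPM), against at most 60.6 CPM in ST2- libraries. The ST2+ library of mouse 2 held 3582 counts and 0 of the macrophage list, which allows up to 838 CPM. These limits cover counting error only.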

How the results depend on the processing

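The colon count of 9 became 30 with DESeq2, 295 with voom and quality weights, 240 with voom, 3 when the fold threshold was tested (glmTreat) and 41 with a replicate block on colon libraries alone. Added after the data were seen, voom with quality weights gave 281 with a replicate block and 58 with a macrophage covariate. Leaving out 1 library gave 5 to 14. With a replicate block over all tissues edgeR called 10, the 9 and Apoe. On colon libraries alone without the block it called 12, of which 3 were among the 9 (Il1rl1, Trib2 and Cblb) and 4 were on the macrophage list (C1qa, C1qb, C1qc and Csf1r). Gata3, Ctsc, Cpm, Foxo1, Agfg1 and Prg4 were not called there. With the block on colon libraries alone, Gata3, Ctsc, Cpm, Foxo1, Agfg1 and Cblb were not called. With the macrophage covariate edgeR called 6, of which 5 were among the 9.

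The count of 1 for the difference from other tissues became 13 with DESeq2, 223 with voom and quality weights, 205 with voom, 2 with all 70 libraries, 2 with a replicate block, 212 and 64 with voom and quality weights with a block and with the macrophage covariate, and 0 with glmTreat, RLE scaling, no filter, all gene types or the macrophage covariate in edgeR, and 0 to 1 with a library left out. In 238 settings of single genes, 184 kept direction and call, 54 kept direction without the call and 0 reversed. Il1rl1 and Trib2 were called in every setting run. The number of ST2+ libraries, 3, limits the precision of every value.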

Other observations

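Of 12 helper cytokine and factor genes, none was called by edgeR or DESeq2. At an unadjusted p below 0.05, 1 was higher (2.83% of all tested genes) and 2 were lower (2.21%). Csf2, a growth factor for myeloid cells, was called higher by voom with quality weights (1.99% of all tested genes were) and had no counts in ST2- libraries. Of 11 memory and quiescence genes, Foxo1 was called lower by edgeR, where 0.038% of all tested genes were. Of 9 sensors of microbial metabolites and vitamins, none was called by any of the 3 tools and none passed an unadjusted p below 0.05. Of 13 effector differentiation factors, none was called by edgeR or DESeq2. At an unadjusted p below 0.05, 2 were lower (2.21% of all tested genes), and voom with quality weights called 1 lower (0.251%).

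Lists of other cell types gave no call by edgeR or DESeq2 for dendritic cells, B and plasma cells, CD8 T and NK cells, endothelium, smooth muscle and glia, and none of these passed an unadjusted p below 0.05. Voom with quality weights called 1 dendritic cell gene higher (1.99% of all tested genes). The B and plasma cell sum was 2293, 571 and 2784 CPM in the ST2+ libraries of mice 1, 3 and 4. It was 1723 to 2333 CPM in ST2- libraries, so that the populations overlapped. The endothelium sum was 1315 and 1096 CPM in the ST2- libraries of mice 2 and 3 and 56.2 to 758 CPM in the other 6. Of 7 ILC2 genes, 6 had fold changes above 1 and none was called by edgeR or DESeq2, with 1 higher at an unadjusted p below 0.05 (2.83% of all tested genes), 2 with every ST2+ library above every ST2- library (3.67%) and 1 called higher by voom with quality weights (1.99%).

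Voom with quality weights called genes outside the lists, chosen here after their values were seen. Daw1 had a mean of 0.959 CPM in ST2+ and 19.3 CPM in ST2- libraries (adjusted p 1.05e-10), and Ppp1r14c 0.191 against 22.2 CPM. Neither was called by edgeR.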
